A study of Mus musculus with 2 samples.

Results

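The genes examined encode the NF-κB transcription factors and the proteins that hold them in check. They were the 5 Rel-family subunits Nfkb1, Nfkb2, Rel, Rela and Relb, the cytoplasmic inhibitors Nfkbia, Nfkbib and Nfkbie, and the nuclear IκB proteins Nfkbiz and Bcl3. A Tcf1 peak was assigned to a gene when its summit lay in the gene body or within 50 kb of either end, on the mm9 mouse genome with GENCODE vM1 gene models. Of 22286 deposited Tcf1 peaks, 55 met this rule, and no peak was assigned to more than 1 of the 10 genes. Of the 55, 51 were high-confidence peaks, beside 85.4% of all deposited peaks (19042). Such a peak was enriched 4-fold or more over the control, at a caller p below 1e-05 and a q below 0.05.

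Tcf1, encoded by Tcf7, is an HMG-box transcription factor of T cells, and these data were made to locate its binding sites in naïve CD8+ T cells. Chromatin immunoprecipitation was done with a rabbit antiserum raised against full-length Tcf1 protein, on 1 WT library and 1 Tcf1-deficient library of cells sorted from mouse spleen as GFP+ TCRbeta+ CD62Lhi CD44lo-med CD8+. The authors called peaks in the WT library with the Tcf1-deficient library as control. The sources differ on the control cells. The sample title calls them Tcf1-deficient, the genotype field gives Tcf1-/-Lef1-/-, the series description names an hCD2-Cre transgene with a Rosa26-lsl-GFP reporter and Tcf1/Lef1 alleles that were wild-type or floxed, and the methods of the study name Cd4-Cre with floxed Tcf7 alone. hCD2-Cre acts mainly in mature T cells and Cd4-Cre from the thymus onwards, so the time of deletion is also unsettled. The study used young adult mice of both sexes, and how many mice, and of which sex, went into each library was not given. A peak list holds no expression values, so neither the loss of Tcf1 nor the cell type could be checked against marker genes.

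Peak calling used 36938606 of 46428124 fragments for WT and 27625250 of 36118114 for the Tcf1-deficient control, the rest being duplicates. Each peak has a pileup, the number of WT fragments over its summit, and a control level computed back from the deposited fold enrichment. That level is not a count of control fragments, and peak calling used 1.34 times as many WT as control fragments. The control level was never under 5.42, called here the control floor. Of the 51 high-confidence peaks, 43 were at this floor (84.3%), beside 86.3% of all high-confidence peaks. At the floor, fold enrichment varied with the WT pileup alone. With 1 library per group no test over samples was possible. The intervals given are exact Poisson 95% intervals on the WT pileup alone, cover counting error only, and leave out the error of the control level.

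NF-κB acts as dimers of Rel-family subunits that are kept in the cytoplasm by IκB inhibitors until a signal, such as that of the T cell receptor, leads to the breakdown of the inhibitor. Dimers then bind κB sequences in DNA, and the genes of several subunits and inhibitors are themselves known targets of NF-κB, which forms a feedback loop. Nuclear IκB proteins bind DNA-bound dimers and can raise or lower transcription.

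Sequences of 2 kinds are shown, because the results turn on where a κB sequence and the Tcf/Lef core lay in these peaks. Each is from the plus strand of mm9, 5′ to 3′, around a peak summit, unless said otherwise. At the second Nfkb2 start the matched site alone is shown, which lies beside the summit and does not hold it. The first set holds the promoter peaks of the genes themselves with the κB sequence GGGNNTTTC on either strand within 100 bp of the summit, and capitals mark the match. Throughout, κB sequence means this form alone, and other forms of κB site were not searched.
Nfkb2 promoter, chr19:46379105-46379226: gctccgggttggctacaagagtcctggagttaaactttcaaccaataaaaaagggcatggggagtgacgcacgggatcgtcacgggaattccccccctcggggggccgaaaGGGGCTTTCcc
Nfkb2 second start, chr19:46380187-46380211: gtattttcGGGACTTTCctaagcag
Rel promoter, chr11:23670971-23671064: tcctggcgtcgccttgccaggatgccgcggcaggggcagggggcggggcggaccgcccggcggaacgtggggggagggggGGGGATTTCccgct
Rela promoter, chr19:5637352-5637472: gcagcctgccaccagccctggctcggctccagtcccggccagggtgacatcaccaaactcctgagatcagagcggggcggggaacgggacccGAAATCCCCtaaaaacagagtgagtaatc
Nfkbia intron 1, chr12:56592939-56593062: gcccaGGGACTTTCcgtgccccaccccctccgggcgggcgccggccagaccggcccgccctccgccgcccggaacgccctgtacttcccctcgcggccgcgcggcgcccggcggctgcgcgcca

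The second set holds the 6 high-confidence peaks with the exact Tcf/Lef core ATCAAAG on either strand within 100 bp of the summit, with the core in capitals.
Nfkb1 intron 1, chr3:135352244-135352364: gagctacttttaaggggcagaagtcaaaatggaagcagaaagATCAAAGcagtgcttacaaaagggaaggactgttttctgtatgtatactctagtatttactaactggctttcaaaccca
Cuedc2 start in the Nfkb2 window, chr19:46413127-46413149: ccaacgagATCAAAGgcggggcc
Sipa1 intron 3 in the Rela window, chr19:5661155-5661275: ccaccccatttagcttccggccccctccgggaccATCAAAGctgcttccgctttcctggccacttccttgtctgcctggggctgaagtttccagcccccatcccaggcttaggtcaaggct
Hnrnpl intron 2 in the Nfkbib window, chr7:29598019-29598139: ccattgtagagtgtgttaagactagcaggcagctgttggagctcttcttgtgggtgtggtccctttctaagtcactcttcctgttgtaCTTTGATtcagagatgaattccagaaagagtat
Hsp90ab1 exon 6 in the Nfkbie window, chr17:45707262-45707382: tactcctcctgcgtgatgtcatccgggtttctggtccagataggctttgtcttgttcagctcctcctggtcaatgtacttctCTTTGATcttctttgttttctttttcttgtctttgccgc
Bcl3 intron 2, chr7:20404547-20404667: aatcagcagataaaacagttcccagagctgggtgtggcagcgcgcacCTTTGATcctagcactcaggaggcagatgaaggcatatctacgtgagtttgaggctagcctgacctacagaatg

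All 10 genes had at least 1 high-confidence Tcf1 peak, beside 66.5% of the 22350 protein-coding genes given the same windows. The number per gene ran from 1 at Rel to 10 at Nfkbib, with a median of 5, and the median over all protein-coding genes was 1. Of the 10 genes, 9 had a high-confidence peak within 1 kb of one of their own annotated transcript starts, called here their own promoter, beside 32.8% of protein-coding genes, and Bcl3 was the exception, though with promoters of 2.5 kb on each side all 10 had one. The fold enrichment of the 51 peaks had a median of 7.48 (quartiles 4.89 and 11.3), and that of all high-confidence peaks was 6.86. Fold enrichments of 10 or more were found at 15 of the 51 peaks (29.4%), beside 27.4% of all high-confidence peaks. Each of the genes except Rel thus had more peaks per window than the median gene, while the median height of those peaks lay near that of the whole list.

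**Figure D1:**
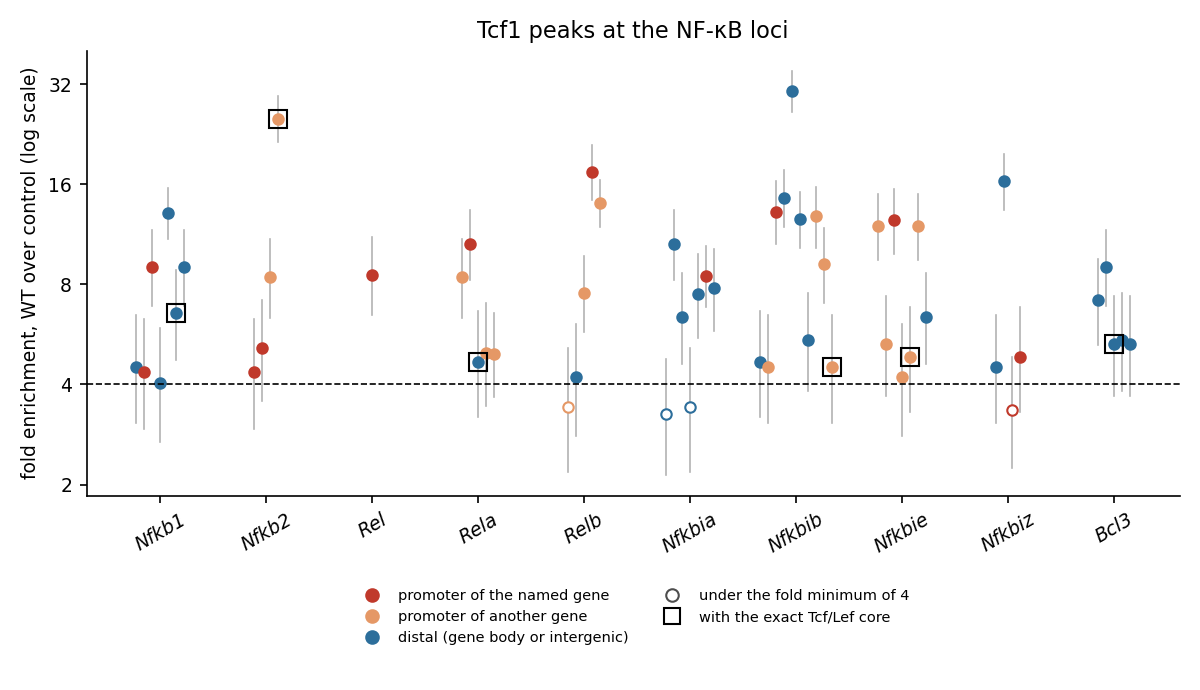
Fold enrichment of WT over control on a log scale (vertical axis) for each of the 55 deposited Tcf1 peaks at the 10 genes (horizontal axis), in order of position, with bars for the Poisson 95% interval of the WT pileup. Open circles are the 4 peaks under the fold minimum of 4 (dashed line), squares hold the exact Tcf/Lef core, and the highest point is the Nfkbib peak at 30.5.

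Among the subunit genes, Nfkb1 encodes a precursor that is processed into a DNA-binding subunit without a transactivation domain (ENSMUSG00000028163.8, chr3:135247619-135354511, minus strand). It had 7 high-confidence peaks, more than 92.9% of protein-coding genes, in the longest of the 10 gene bodies (107 kb). Its leading peak, in intron 3, lay 25.7 kb after the gene start and 1.99 kb after an internal start of a coding transcript (chr3:135328287-135329244). There 126 WT fragments stood against a control level of 8.69, a fold enrichment of 13.1 (10.9 to 15.6). A peak in intron 1, 2.21 kb after the start, had 41 fragments over the control floor, 6.54-fold (4.74 to 8.82), and held the Tcf/Lef core 15 bp from its summit. No deposited peak had its summit within 1 kb of the outermost start of Nfkb1. The promoter peaks counted for it lay at internal starts of non-coding transcripts, in intron 16 (57 fragments, 9.04-fold, 6.88 to 11.7) and in intron 18 (27 fragments, 4.36-fold, 2.93 to 6.28). Nfkb1 therefore counted as having a promoter peak only through those internal starts. The other 3 peaks had fold enrichments of 9.04 (39.9 kb upstream), 4.52 (11.5 kb past the gene end) and 4.05 (intron 4), the last being the lowest that passed the fold minimum.

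Nfkb2 encodes the precursor of the non-canonical pathway (ENSMUSG00000025225.7, chr19:46379227-46386580, plus strand), and had 4 peaks. Those at its own starts were low. A summit 62 bp before the first start had 27 fragments, 4.36-fold (2.93 to 6.28), and a summit 49 bp before the start of another coding transcript, in intron 1, had 32 fragments, 5.14-fold (3.57 to 7.19). Both held a κB sequence, 55 and 63 bp from the summit. The leading peak in the window was at another gene, 33.9 kb after the Nfkb2 start and 4 bp after the start of Cuedc2 (chr19:46412837-46413519). It had 161 fragments over the control floor, 25.2-fold (21.5 to 29.4), and held the Tcf/Lef core 8 bp from the summit. The interval of this peak did not overlap those of the peaks at the Nfkb2 starts. A peak at the start of Fbxl15, which encodes an F-box protein, was 8.41-fold enriched (6.34 to 11.0).

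Rel encodes c-Rel, a subunit prominent in lymphocytes (ENSMUSG00000020275.8, chr11:23641514-23670970, minus strand). It had a single peak, 14 bp before its start (chr11:23670242-23671543), with 54 WT fragments over the control floor, 8.57-fold (6.48 to 11.1). The peak was broad, at 1302 bp beside a median of 484 bp for all high-confidence peaks, and a κB sequence lay 71 bp from the summit. The window of Rel held no start of another coding gene, and 33.5% of protein-coding genes had fewer peaks.

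Rela encodes the main transactivating subunit of the canonical pathway (ENSMUSG00000024927.6, chr19:5637483-5648130, plus strand). The leading peak of its 5 was at its own promoter, 71 bp before the start (chr19:5637173-5637896), with 67 fragments over the floor, 10.6-fold (8.25 to 13.4), and a κB sequence 36 bp from the summit. The other 4 were at or in neighbouring genes. The promoter of Kat5, a histone acetyltransferase gene, had an 8.41-fold peak (6.34 to 11.0). A pair of peaks near the start of Map3k11, a MAP kinase kinase kinase gene, were 4.99-fold (3.44 to 7.01) and 4.95-fold (3.67 to 6.55) enriched. Intron 3 of Sipa1, a GTPase-activating protein gene, had a 4.67-fold peak (3.18 to 6.65) with the Tcf/Lef core 23 bp from its summit.

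Relb encodes the partner of the processed Nfkb2 product (ENSMUSG00000002983.9, chr7:20191566-20214787, minus strand). Its leading peak was also its own promoter peak, in intron 1 with the summit 701 bp after the gene start and 47 bp after an internal start (chr7:20213794-20215109). It had 111 fragments over the control floor, 17.5-fold (14.4 to 21.0), the highest of the 11 own promoter peaks, and was 1316 bp wide. No κB sequence lay within 100 bp of this summit, but 1 began 97 bp before the gene start, under the same peak. The 250 bases before the Relb start are shown on the strand of the gene (the sense strand, read towards the start), with that match in capitals, because this was the strongest own promoter peak.
Relb upstream, chr7:20214788-20215037, minus strand: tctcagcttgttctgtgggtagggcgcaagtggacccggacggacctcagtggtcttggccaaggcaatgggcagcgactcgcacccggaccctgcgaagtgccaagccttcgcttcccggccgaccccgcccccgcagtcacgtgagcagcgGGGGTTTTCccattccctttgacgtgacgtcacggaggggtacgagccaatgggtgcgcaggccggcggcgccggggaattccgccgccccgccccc
A peak at the promoter of Clptm1 had more fragments, 154, but against a control level of 10.03, so its fold enrichment was 14.1 (11.9 to 16.4). The Clasrp promoter had a 7.55-fold peak (5.75 to 9.74), and the remaining high-confidence peak, 1.32 kb before the start of Zfp296, was 4.21-fold enriched (2.80 to 6.09).

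Among the cytoplasmic inhibitors, Nfkbia encodes IκBα, which is broken down and resynthesised in each round of NF-κB signalling (ENSMUSG00000021025.7, chr12:56590398-56593634, minus strand). All of its 5 high-confidence peaks were nearer to its own start than to that of any other coding gene, and its window held no other coding start. The promoter peak in intron 1 lay 632 bp after the start (chr12:56592653-56593867), with 87 fragments against a control level of 9.36, 8.49-fold (6.82 to 10.5). It had the highest GC content of the 51 (77.1%) and a κB sequence 54 bp from the summit. Its leading peak lay 24.5 kb past the gene end (chr12:56565530-56566368), with 67 fragments over the floor, 10.6-fold (8.25 to 13.4), and its neighbour at 22.7 kb past the end was 6.39-fold enriched (4.61 to 8.64). The remaining peaks were 0.144 kb past the gene end (7.48-fold, 5.54 to 9.89) and 6.60 kb upstream (7.79-fold, 5.80 to 10.3). The intervals of the 5 peaks overlapped, and differences among them were not tested.

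Nfkbib encodes IκBβ (ENSMUSG00000030595.8, chr7:29543270-29552531, minus strand), and had the most peaks of the 10 genes, 10, more than 98.0% of protein-coding genes. The promoter peak of the gene itself lay 29 bp before the start of a second coding transcript (chr7:29551358-29551961), with 84 fragments over the floor, 13.2-fold (10.6 to 16.4). The other 9 peaks were nearer to the start of another coding gene. The leading one was in intron 4 of Rinl, 25.02 kb upstream of Nfkbib (chr7:29577176-29577904), with 195 fragments over the floor, 30.5-fold (26.4 to 35.1), and ranked 549 of the 22286 deposited peaks. None of the 4 short sequences searched lay within 100 bp of its summit, and the bases around the summit of this highest peak of the 51 are shown from the plus strand, with nothing to capitalise.
Rinl intron 4, chr7:29577488-29577608: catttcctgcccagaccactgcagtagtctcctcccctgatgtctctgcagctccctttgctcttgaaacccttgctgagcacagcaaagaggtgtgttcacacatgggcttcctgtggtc
Intron 5 of Sirt2, a deacetylase gene, had a 14.5-fold peak (11.9 to 17.6), and an intergenic site 32.7 kb upstream of Nfkbib was 12.6-fold enriched (10.3 to 15.2). Hnrnpl, which encodes a splicing regulator, had 3 peaks near its annotated starts, of 12.8-fold (10.3 to 15.8), 9.19-fold (7.02 to 11.8) and 4.52-fold (3.06 to 6.46). The last of these held the Tcf/Lef core, 31 bp from its summit. The first was the widest of the 51 peaks, at 1931 bp. The other 3 peaks were low, in Fbxo17 intron 2 (4.67-fold, 3.18 to 6.65), at the start of Mrps12, a mitochondrial ribosomal protein gene (4.52-fold, 3.06 to 6.46), and 35.4 kb upstream of Nfkbib (5.45-fold, 3.82 to 7.56).

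Nfkbie encodes IκBε (ENSMUSG00000023947.7, chr17:45692665-45700118, plus strand). Its leading peak was at its own promoter, 109 bp before the start (chr17:45692252-45692785), with 79 fragments over the floor, 12.5-fold (9.90 to 15.5). No GGGNNTTTC, Tcf/Lef core, ETS or Runx sequence lay within 100 bp of that summit, and other forms of κB site were not searched there. The window held the starts of 8 other coding genes, the most of the 10, and 6 of the 7 high-confidence peaks were nearer to one of those. Peaks at the promoters of Aars2, a mitochondrial alanyl-tRNA synthetase gene, and Hsp90ab1, a chaperone gene, were each 12.0-fold enriched (9.49 to 14.98). Another in exon 6 of Hsp90ab1, in its coding sequence, was 4.83-fold enriched (3.31 to 6.83) and held the Tcf/Lef core 25 bp from the summit. The others were at Tmem151b (5.30-fold, 3.70 to 7.38), at Slc35b2 (4.21-fold, 2.80 to 6.09) and between genes (6.39-fold, 4.61 to 8.64).

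Of the nuclear IκB genes, Nfkbiz had a low peak at its start and Bcl3 had none. Nfkbiz encodes IκBζ (ENSMUSG00000035356.9, chr16:55811488-55839012, minus strand), and all 3 of its high-confidence peaks were inside the gene. The leading peak, in intron 3, lay 17.8 kb after the gene start and 1.08 kb after an internal coding start (chr16:55820301-55821442), with 104 fragments over the floor, 16.4-fold (13.4 to 19.8). The promoter peak, in exon 1, had 30 fragments, 4.83-fold (3.31 to 6.83), and its interval did not overlap that of the leading peak. The remaining peak, in intron 4, was 4.52-fold enriched (3.06 to 6.46).

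Bcl3 encodes a nuclear IκB protein that binds dimers of the processed Nfkb1 and Nfkb2 products (ENSMUSG00000053175.9, chr7:20393811-20408119, minus strand). It had 5 high-confidence peaks, and its own promoter held no deposited peak. Both peaks inside the gene were in intron 2. The leading one, 5.18 kb after the start (chr7:20402706-20403191), had 57 fragments over the floor, 9.04-fold (6.88 to 11.7), and the other, 3.51 kb after the start, was 5.30-fold enriched (3.70 to 7.38) with the Tcf/Lef core 10 bp from its summit. The remaining 3 lay in Cblc intron 5 (7.17-fold, 5.27 to 9.54) and upstream of Bcl3 at 22.2 kb (5.45-fold, 3.82 to 7.56) and 32.7 kb (5.30-fold, 3.70 to 7.38).

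**Figure D2:**
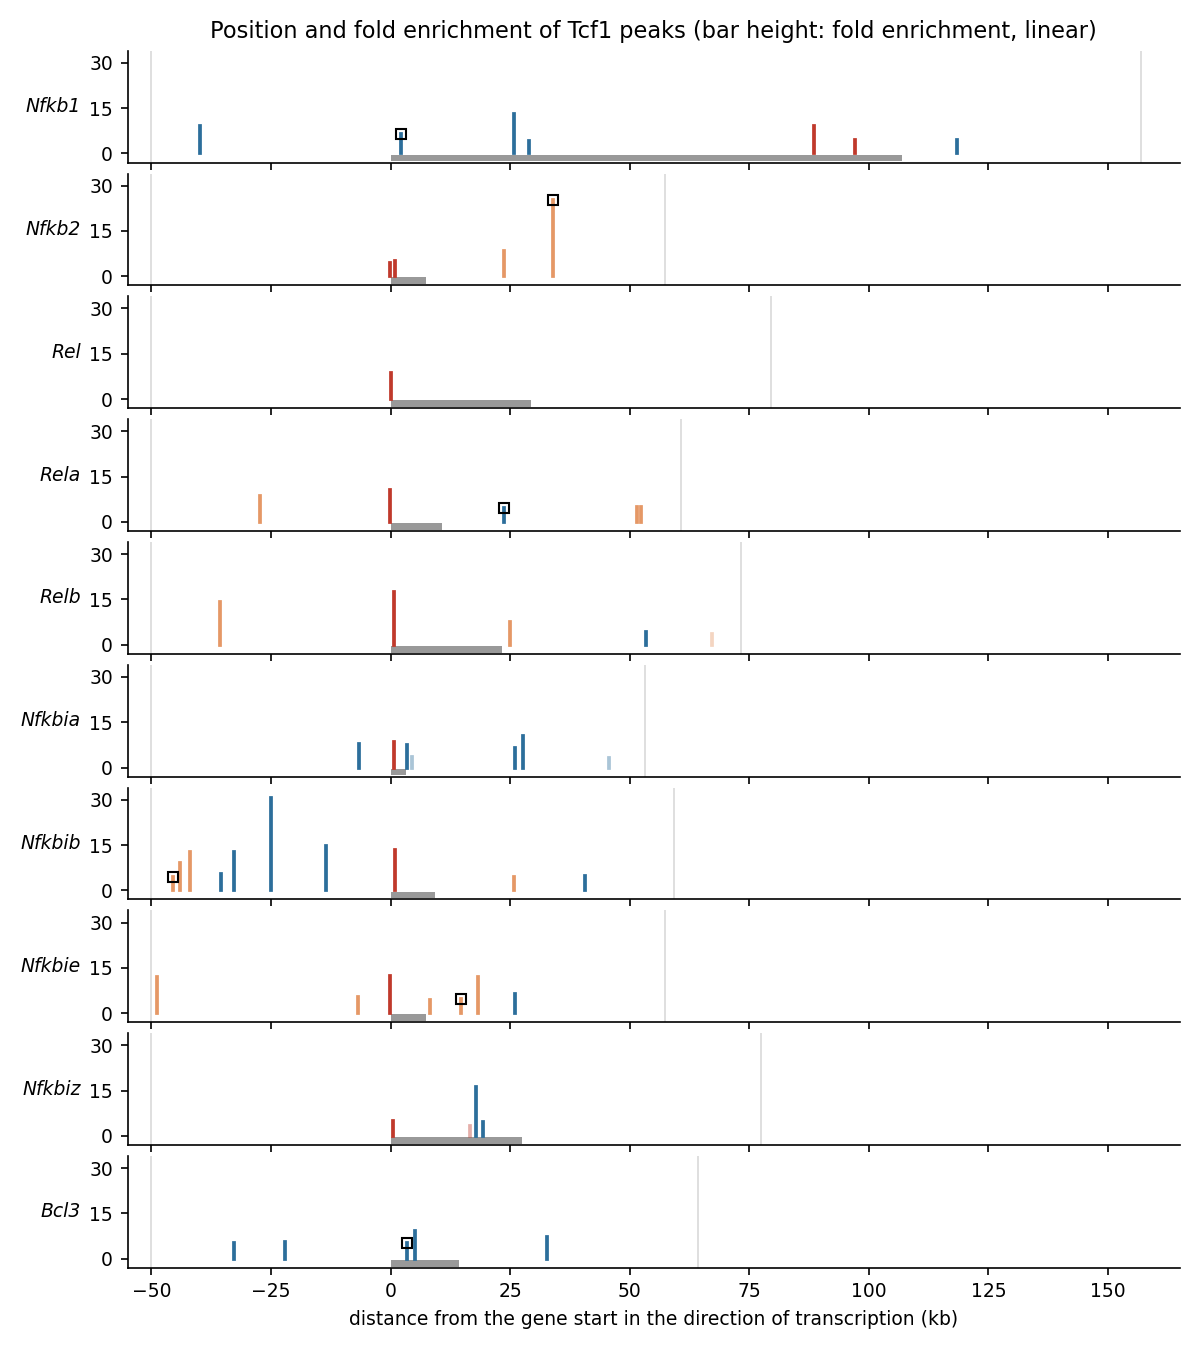
Position of each deposited Tcf1 peak from the gene start, in kb in the direction of transcription (horizontal axis), with fold enrichment as bar height (vertical axis, linear from 0) and the gene body in grey, for the 10 genes. Red bars are at starts of the named gene, orange at starts of other genes and blue distal, pale bars are under the fold minimum, squares mark the exact Tcf/Lef core, and the tallest bar lies 25.02 kb upstream of Nfkbib.

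Ordered by leading peak, the genes ran Nfkbib, Nfkb2, Relb, Nfkbiz, Nfkb1, Nfkbie, Rela and Nfkbia (equal), Bcl3 and Rel. This order depended on the window. With 10 kb on each side the leading peak fell to 5.14-fold at Nfkb2 and 13.2-fold at Nfkbib, and with 100 kb it was 22.1-fold at Rel. Counting intervals of neighbours in this order overlapped except between Nfkb2 (25.2, 21.5 to 29.4) and Relb (17.5, 14.4 to 21.0). The leading peak lay at the gene's own promoter for Rel, Rela, Relb and Nfkbie, in its own gene body away from the promoter for Nfkb1, Nfkbiz and Bcl3, downstream of the gene for Nfkbia, and at or in another gene for Nfkb2 and Nfkbib. Median fold enrichments were 7.55 over the 21 peaks of the subunit genes, 8.14 over the 22 of the cytoplasmic inhibitors and 5.38 over the 8 of the nuclear IκB genes. The medians were not tested, and peaks of 1 library are not replicates.

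The promoters of the genes themselves carried 11 high-confidence peaks. The lowest of these was 4.36-fold enriched, the median 8.57-fold and the highest 17.5-fold. Among all 7327 protein-coding genes with a peak at their own promoter, the strongest such peak had a median fold enrichment of 6.70, and 7 of the 9 genes here were above it. Relb stood above 94.0% of those 7327 genes, Nfkbib above 88.0%, Nfkbie above 86.4% and Rela above 80.4%. At the low end, Nfkb2 stood above 22.4% and Nfkbiz above 16.1%. The value of Nfkbiz depended on the 1 kb limit, since its 16.4-fold peak had its summit 1.08 kb after an internal coding start and was counted as distal. Promoter enrichment of Tcf1 thus differed widely among these 9 genes.

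The Tcf/Lef core lay within 100 bp of 6 of the 51 summits (11.8%, Wilson 95% interval 5.51 to 23.4), beside 10.2% of all high-confidence peaks. It was in 3 of the 27 promoter peaks (11.1%, 3.85 to 28.1), beside 5.13% of all promoter peaks, and in 3 of the 24 distal peaks (12.5%, 4.34 to 31.0), beside 13.5% of all distal peaks. Of the 3 promoter peaks, those in Hnrnpl intron 2 and Hsp90ab1 exon 6 counted only through starts of non-coding transcripts. Their nearest coding starts were 2.12 and 2.18 kb away. None of the 11 own promoter peaks held the Tcf/Lef core, a count near the 5.13% of all promoter peaks, and 4 of the 6 peaks with it were at the starts or in the bodies of other genes. The κB sequence also lay near 6 summits (11.8%, 5.51 to 23.4), beside 3.70% of all high-confidence peaks. All 6 were promoter peaks, so that the share was 22.2% of the 27 promoter peaks in these windows (10.6 to 40.8), beside 3.19% of all promoter peaks. Of those, 5 were own promoter peaks, shown among the sequences given first, at Nfkb2, Rel, Rela and Nfkbia (5 of 11, 45.5%, 21.3 to 72.0), and 1 was at the Mrps12 start in the Nfkbib window, the only 1 of 16 peaks at promoters of other genes. The 24 distal peaks held no κB sequence (upper Wilson bound 13.8%), beside 4.03% of all distal peaks. The ATCAAAG core contains the TCAAAG used as an alternative, and the other sequences searched do not contain one another. The differences between these shares were not tested. A match is a run of letters and was not tested for binding by any factor. Because GGGNNTTTC was the only κB form searched, κB sites of other forms are missing from these counts.

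**Figure D3:**
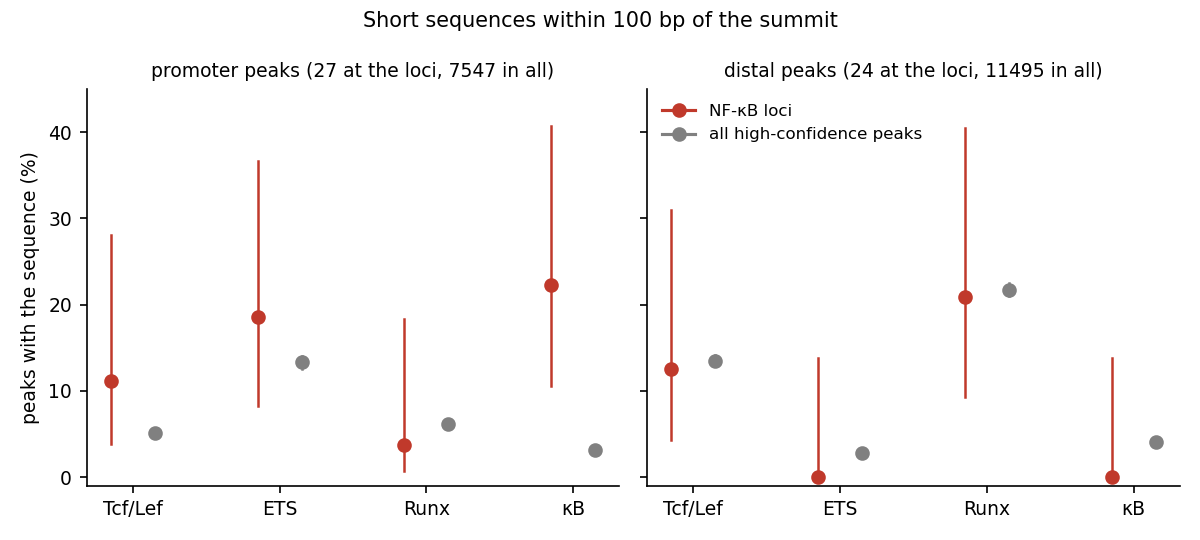
Share of high-confidence peaks (vertical axis, %) with each of 4 short sequences within 100 bp of the summit (horizontal axis), for promoter peaks (left) and distal peaks (right), at the NF-κB genes (red) and over the whole list (grey), with Wilson 95% intervals. The κB share of promoter peaks is 22.2% at the NF-κB genes and 3.19% over the whole list.

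Because a κB sequence at a promoter is a property of the genome, it was also counted without regard to peaks, in the window from 250 bp before to 50 bp after the outermost start of each gene. It was found at 7 of the 10 genes, beside 4.29% of the 22350 protein-coding genes. Its first base lay 11 bp before the start of Nfkb2, 39 bp before that of Rela, 89 bp before that of Rel and 97 bp before that of Relb. At Nfkbia there were 3 matches, beginning 113 and 28 bp before and 2 bp after the start, and at Nfkb1 and Nfkbiz it began 31 and 30 bp after the start. Nfkbib, Nfkbie and Bcl3 had no GGGNNTTTC in this window, and other forms of κB site were not counted. The Tcf/Lef core was in none of the 10 windows, beside 3.47% of all. The match at Nfkb1 lay at an outermost start without a Tcf1 peak, so a κB sequence and a Tcf1 summit did not go together at every one of these starts.

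The windows differ in the number of neighbouring genes, and a peak in them need not belong to the named gene. The nearest coding start was that of the named gene for 23 of the 51 peaks and another gene for 28, with median fold enrichments of 7.79 and 6.78. In the 6 windows with 4 or more starts of other coding genes (Nfkb2, Rela, Relb, Nfkbib, Nfkbie and Bcl3), 8 of 35 peaks were nearest to the named gene. In the other 4 (Nfkb1, Rel, Nfkbia and Nfkbiz), it was 15 of 16. The median number of other coding starts was 4 for the 10 genes and 2 for all protein-coding genes. In windows of equal length, 50 kb on each side of the start, the median was 4 peaks for the 10 genes and 1 for all, and 9 of the 10 lay above that median. Peaks at any promoter made up 52.9% of the 51 (39.5 to 66.0), beside 39.6% of all high-confidence peaks.

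Lists of other transcription factor and cytokine signalling genes of T cells were counted in the same way. For 13 AP-1, Irf4 and NFAT genes the median was 5 peaks per gene, 11 had an own promoter peak and the median leading fold enrichment was 13.2. For 11 STAT and SOCS genes the median was also 5, 8 had an own promoter peak and the median leading fold enrichment was 15.9. In that list neighbouring genes shared peaks, since the counts per gene added up to 71 while the windows held 52 distinct deposited peaks. The 10 NF-κB genes had a median leading fold enrichment of 12.8. All protein-coding genes with an own promoter peak had a median of 3 peaks and a leading fold enrichment of 10.9. The median number of peaks was thus the same for the NF-κB genes and both lists, and the differences in leading fold enrichment were not tested.

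**Figure D4:**
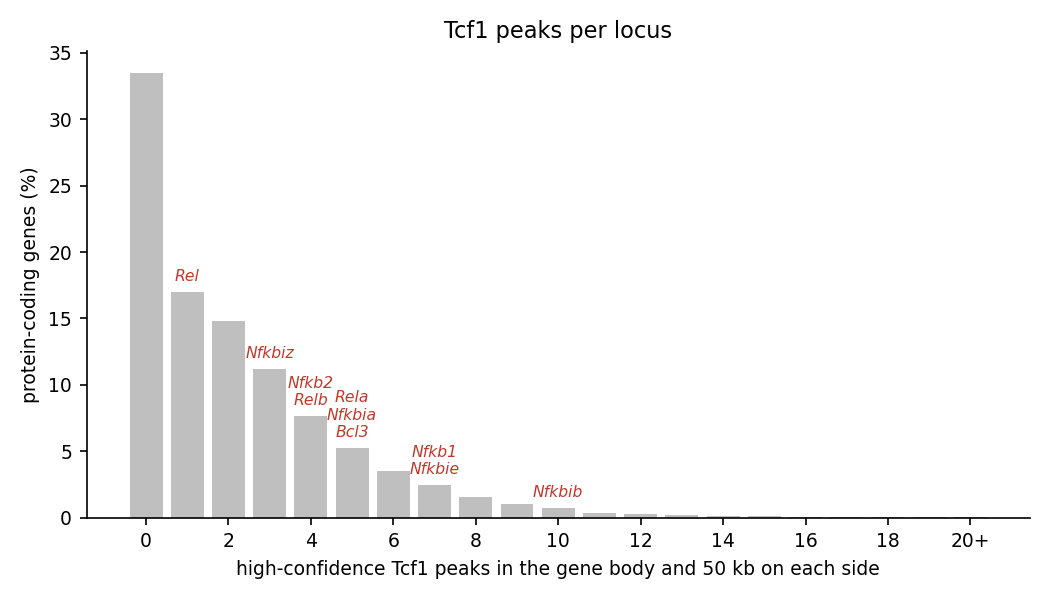
Share of 22350 protein-coding genes (vertical axis, %) by the number of high-confidence Tcf1 peaks in the gene body and 50 kb on each side (horizontal axis), with the 10 NF-κB genes named above the bar of their own count. Rel has 1 peak and Nfkbib 10, and the median over all protein-coding genes is 1.

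The kinases, adaptors and deubiquitinases that carry signals to NF-κB were described from a list of 25 genes. All 25 had a high-confidence peak, beside 66.5% of protein-coding genes, and 22 had one at their own promoter, beside 32.8%, the exceptions being Chuk, which encodes a kinase of the IκB kinase complex, Birc2, a ubiquitin ligase gene, and Nkap. Their leading fold enrichment had a median of 16.8, was 10 or more at 18 genes and 20 or more at 10, of which Birc2 and Birc3 shared 1 leading peak, at the Birc3 start (25.6-fold, 21.8 to 29.8). Of all protein-coding genes, 33.5% had a peak of 10-fold or more and 12.2% one of 20-fold or more, and of those with an own promoter peak 55.0% and 20.6% did. The highest was at Otulin, which encodes a deubiquitinase for linear chains, in an intergenic peak 33.6 kb after its start (251 fragments, 39.3-fold, 34.6 to 44.4). Prkcq, which encodes a protein kinase C isoform of T cell receptor signalling, had 18 peaks, the leading one in intron 1 with 286 fragments against a control level of 8.02 (31.8-fold, 28.2 to 35.7). Ripk1, a kinase of the tumour necrosis factor receptor complex, had a single peak, at its promoter (183 fragments, 28.7-fold, 24.7 to 33.1). Nfkbid, another nuclear IκB gene, had 6 peaks, the leading one 27.2 kb upstream (174 fragments, 27.3-fold, 23.4 to 31.6), and 2 own promoter peaks.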

How the data were processed

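Tcf1 ChIP-seq libraries, 1 WT and 1 Tcf1-deficient, were checked with FastQC, aligned by the authors with Bowtie2 (version 2.2.5) to mm9, and compared with MACS2 (2.1.1, file header 2.1.1.20160309) in paired-end mode, with 1 fragment kept per position. The deposited pileup is an unscaled signal, the WT fragments over the summit. Fold enrichment, as deposited, is a ratio of the pileup plus a pseudocount of 1 to the control level plus 1. The deposited −log10 p and −log10 q are those of the peak caller, which compare 2 libraries and not genotypes. The file header says that q was not calculated, yet the file holds q values, which were used as deposited. For 21920 peaks a Poisson p recomputed from the pileup and control level matched within 0.01. The deposited positions and widths are 1-based, in bp. Every value column was used.

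Peaks were joined to GENCODE vM1 genes on NCBIM37, the same build as mm9, with Python 3.11.15, pandas 2.3.3, SciPy 1.17.1, pysam 0.24.0, samtools 1.23.1 and matplotlib 3.10.9. The scripts were tested on simulated data. The genes, lists and rules were chosen with earlier results of these data known. Named peaks were, for each of the 10 genes, its leading peak, its promoter peaks and those with the Tcf/Lef core, with the remaining peaks given by their values. From the 25 pathway genes the 5 with the highest leading fold enrichment and Nfkbid were to be named, of which 1 is not reported here, and Otulin was matched as Fam105b by synonym. The window around gene starts, the percentiles of promoter peaks and the split by neighbouring starts were chosen after seeing the data. No test was made, since each group had 1 library. Alternatives changed the fold minimum, q limit, window, promoter length, transcript starts, core and pseudocount.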

Additional observations from a re-analysis of the deposited data

Results flagged for a closer look

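Of the 55 deposited peaks at the NF-κB genes, 4 had a fold enrichment under 4 and entered none of the main results, although the peak caller placed each above its control level. Where no control level is given below, it was at the control floor. At Nfkbia, 1 lay 1.14 kb past the gene end with 21 WT fragments (3.43-fold, 2.18 to 5.16), and another lay 42.5 kb past the end with 24 fragments against a control level of 6.69 (3.25-fold, 2.13 to 4.78) and a κB sequence 16 bp from its summit. At Nfkbiz, a peak in intron 2, 109 bp before an internal coding start, had 27 fragments against 7.35 (3.35-fold, 2.25 to 4.82). In the Relb window, a peak 59 bp after the start of Lrrc68 had 21 fragments (3.43-fold, 2.18 to 5.16). The interval of each reached past 4, and 21 of the 51 high-confidence peaks had a lower bound under 4, so the limit separates peaks whose counting errors overlap.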

How the results depend on the processing

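Of 52 alternatives to the 6 main results, 44 left a count within 1.5 times the reported one, or a share or the median fold enrichment within its 95% interval, and 8 did not. With a fold minimum of 8, 23 peaks remained in the count, their median fold enrichment was 12.0, the median per gene was 2 and the share with the Tcf/Lef core was 4.35%. Windows of 10 kb on each side gave 24 peaks and a median of 2 per gene. Promoters of 2.5 kb on each side raised the promoter share to 66.7%, and a core of 6 bases raised the core share to 31.4%. With the core anywhere in the peak the share was 19.6%, inside the interval of the reported 11.8% but over 1.5 times as high. With coding transcript starts only, 8 of the 10 genes had an own promoter peak, Nfkb1 being the one lost, and with promoters of 2.5 kb all 10 had one, Bcl3 included. Among 40 alternatives for the leading peaks 7 moved. Without the pseudocount, Nfkb2 reached 29.7 and Nfkbib 36.0. With 10 kb, the leading peak was 5.14-fold at Nfkb2 and 13.2-fold at Nfkbib, and with 100 kb it was 22.1-fold at Rel and 16.1-fold at Nfkbie. Chosen by pileup, it was 14.1-fold at Relb. No paired analysis was possible because each group had 1 library and the labels gave no replicate numbers, and for the same reason no library could be left out. Depth limits the low peaks, since at the control floor 25 fragments were needed for a fold enrichment of 4.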

Other observations

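Sequences resembling the cores of ETS and Runx factors, which are abundant in T cells, were also counted among the 51 peaks, and split between promoter and distal peaks in the same direction as over the whole list. The ETS core CGGAAGT was found near 5 summits (9.80%, Wilson 95% interval 4.26 to 21.0), beside 6.93% of all high-confidence peaks. All 5 were promoter peaks (5 of 27, 18.5%, beside 13.3% of all promoter peaks, and 0 of 24 distal peaks, beside 2.75% of all distal peaks), at Kat5 and Map3k11 in the Rela window, at Clasrp in that of Relb, at Slc35b2 in that of Nfkbie and at an internal Nfkb1 start. The Runx core TGTGGTT was found near 6 summits (11.8%, 5.51 to 23.4), beside 15.5% of all high-confidence peaks. Of these, 5 were distal (5 of 24, 20.8%, beside 21.7% of all distal peaks), and 1 of the 27 promoter peaks held it (3.70%, beside 6.10% of all promoter peaks). The distal ones were in intron 4 of Nfkb1, intron 4 of Nfkbiz, the peak 22.7 kb past the end of Nfkbia and the pair upstream of Bcl3. The promoter one was the 9.19-fold Hnrnpl peak in the Nfkbib window. The interval of each share at the NF-κB genes included the share of the whole list.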
